A study of Cavia porcellus with 8 samples.

Results

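In guinea pigs, cochleae with an electrode that released dexamethasone were compared, 7 days after insertion, with cochleae that had received a normal electrode. Of the 8 arrays of the study, the 6 from implanted animals entered the comparison, 3 with a normal electrode (NOR) and 3 with a dexamethasone-eluting electrode (DEX). They were chosen by the electrode named in their sample titles. The other 2 arrays were from animals without surgery (CNT). They give the level without surgery and add to the estimate of the spread. All animals were male Hartley guinea pigs, 8 weeks old by the sample labels and 7 weeks old by the treatment protocol. The electrodes were silicone dummies without wires or contacts, inserted through a small hole made near the round window of the left cochlea, so that NOR and DEX share the surgery and differ in the drug held by the silicone. Total RNA came from the whole cochlea, 1 array per animal. In such bulk RNA, fewer cells of a type and less RNA per cell cannot be told apart. The deposited table holds 1 fluorescence signal per array for each of 13269 transcripts, called features and identified by sequence accession. Of these features, 12497 have accessions beginning with EL or EB, and the other 772 are the features on which the comparison centres. Other transcripts of the array design were not analysed here. Gene names were known for 49 rows of the study's gene lists, which take up 59 features.

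Dexamethasone is a synthetic glucocorticoid. It binds the glucocorticoid receptor, a transcription factor that moves into the nucleus, raises transcription of some genes directly and holds back others, many of them inflammatory genes driven by NF-κB and AP-1. In the inner ear it is given to limit the inflammation and scarring that follow electrode insertion, a response in which resident and incoming macrophages, cytokines, chemokines and clotting proteins take part. The glucocorticoid-induced genes FKBP5, TSC22D3 and PER1, and the marker lists fixed for hair cells, supporting cells, neurons and macrophages (for the last CD68, CD163 and CSF1R), could not be matched to features, so that neither receptor activity nor the cell makeup of the tissue was checked with them.

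The 6 implanted arrays fell into 2 array sets, which neither the sample labels nor the study's methods name. Replicates 1 and 2 of both electrodes made up set A. Replicate 3 of both electrodes and the CNT arrays made up set B. Median deposited signals were 395 to 405 in set A and 308 to 325 in set B. Within a set any pair of arrays had 246 to 384 signal values in common to the last digit, against 30 to 52 across sets. Signals were quantile-normalized on the log2 scale, and DEX was compared with NOR in set A (2 against 2 animals), in set B (1 against 1, with no test of its own) and over both sets in 1 limma model with the array set as a term. Because each electrode is divided over the sets in the same way, a shift between the sets enters NOR and DEX alike. All CNT arrays are in set B, so that levels in CNT are compared with set A across sets. Each array is 1 animal by the treatment protocol, and the number of animals limits the precision of every value.

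The electrodes differed strongly at few features. No feature differed between DEX and NOR at an adjusted p under 0.05 (0 of 13269, 0.00%), and the lowest adjusted p by limma with Benjamini-Hochberg adjustment was 0.208. At an unadjusted p under 0.05, limma gave 696 features (5.25%), among them 81 of the 772 (10.5%), and the methods' t-test gave 287 on linear signals and none after adjustment. The differences are therefore described below by their size, by the values of every animal and by their direction in both sets.

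The spread of the differences between electrodes was like that between animals of 1 electrode in set A and wider in set B. In set A, the log2 ratio of a NOR to a DEX array had an SD of 0.26 to 0.29 over all features, while NOR replicates 1 and 2 gave 0.27 and DEX replicates 1 and 2 gave 0.28. In set B, NOR replicate 3 against DEX replicate 3 gave 0.40, against 0.28 for the 2 CNT animals. The difference in set A, read across features that are no independent replicates, had a Pearson's r of -0.03 with the difference in set B over all 13269 features and of 0.03 over the 772. A feature was taken as differing the same way in both sets where the signal of one electrode was at least 25% above that of the other in each set, a log2 difference of 0.32 or more in size. By this measure 75 features (0.565%) were higher and 121 (0.912%) were lower with DEX, and 196 (1.48%) went opposite ways. Among the 772, 11 (1.42%) were higher, 16 (2.07%) were lower and 42 (5.44%) went opposite ways. With this scaling as many features of the array thus went the same way as opposite ways, and of the 772 more went opposite ways. The balance of higher and lower features depended on the scaling. With median centring 100 features were higher and 84 lower, and 15 and 13 of the 772. Of the 772, 13 were higher and 13 lower when each set was normalized on its own, and 14 and 14 with cyclic loess. All DEX animals lay above all NOR animals in 350 features (2.64%) and below in 373 (2.81%), and in 24 (3.11%) and 30 (3.89%) of the 772.

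**Figure D1:**
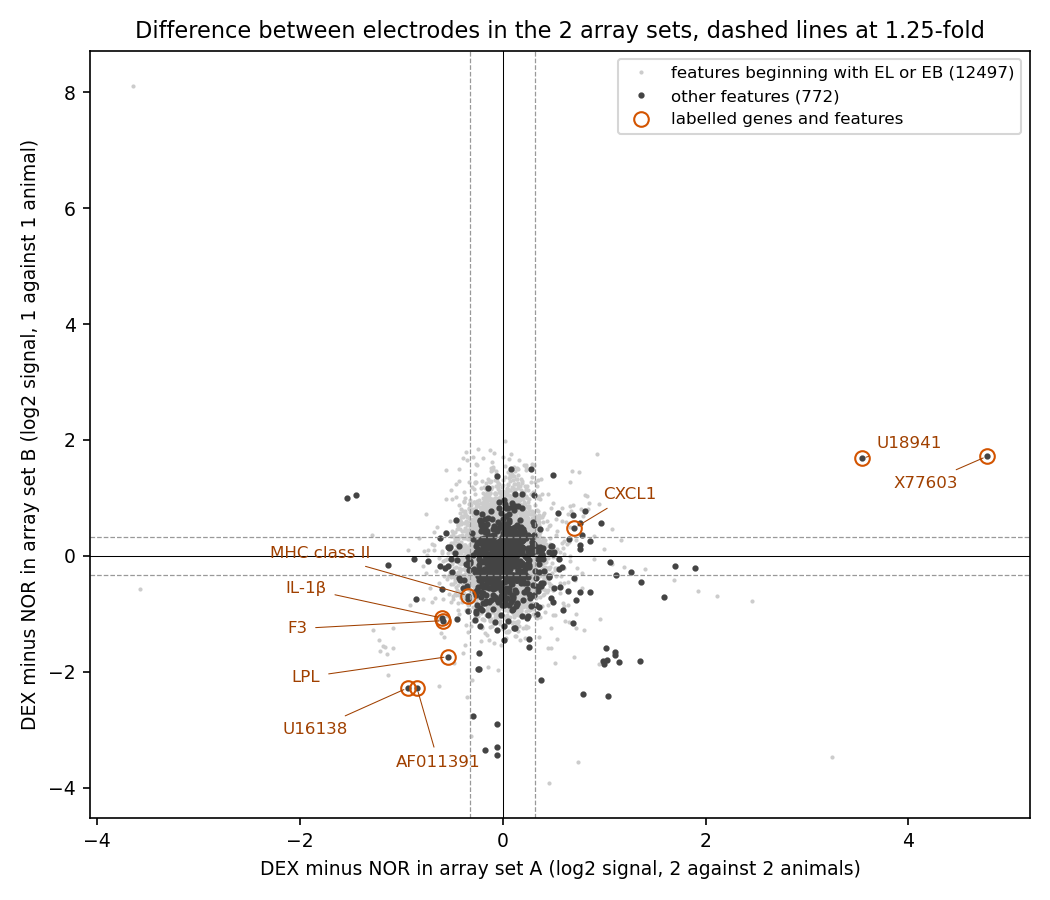
Difference between DEX and NOR (log2 signal) in array set A on the horizontal axis and in array set B on the vertical axis, 1 point per feature, with dashed lines at the 25% limit. Most features lie near 0 with no slope between the sets, and X77603 and U18941 are the only points above 2-fold in both.

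The largest differences the same way in both sets were those of 2 features that were higher with DEX. X77603 and U18941 are accessions without a gene name in the sources used here. Whether they stand for different genes is not known, so that they may not be independent measurements. They were the only 2 of all 13269 features (0.0151%) at least 2-fold higher with DEX in both sets, and both belong to the 772 (0.259%). The signal of X77603 was 29.4, 18.9 and 91.1 in NOR replicates 1, 2 and 3, and 1623, 257 and 300 in DEX replicates 1, 2 and 3. All DEX animals lay above all NOR animals, DEX replicate 1 stood far above the other two, and the 2 CNT animals, at 23.0 and 15.8, lay near the lower NOR animals. DEX was 27.4-fold above NOR in set A and 3.29-fold in set B. The NOR signals of set A were near those of CNT and may not exceed the background, so that the fold in set A is approximate. Over both sets the log2 difference was 3.76 ± 0.79 (SE, 95% interval 1.92 to 5.59), with a limma adjusted p of 0.884.

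The signal of U18941 was 42.6, 31.8 and 41.0 in NOR and 1008, 183 and 131 in DEX replicates 1, 2 and 3. The animals of the electrodes again did not overlap, with DEX replicate 1 the highest, and the CNT animals were at 26.5 and 24.7. DEX exceeded NOR 11.7-fold in set A and 3.21-fold in set B, with a log2 difference of 2.92 ± 0.62 (SE) over both sets and a limma adjusted p of 0.884. NOR lay close to CNT for this feature, whereas DEX lay apart from both. The NOR signals were low, little above the 25% of features with the lowest mean signal (up to 30.1), so that its folds are approximate too. Leaving out each animal in turn, the log2 difference stayed between 2.71 and 4.78 for X77603 and between 2.04 and 3.54 for U18941, with the lowest value of both without DEX replicate 1.

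Among cytokines, the secreted signals between immune cells, IL-1β was lower with DEX in both sets. IL-1β is an early cytokine of the innate response that induces many other inflammatory genes. Its signal was 278, 542 and 316 in NOR, 262, 250 and 150 in DEX, and 103 and 107 in CNT. Every DEX animal lay below every NOR animal and above both CNT animals, although DEX replicate 1 and NOR replicate 1 were close. NOR exceeded DEX 1.52-fold in set A and 2.10-fold in set B, a log2 difference of -0.76 ± 0.23 (SE, 95% interval -1.30 to -0.22, limma adjusted p = 0.884).

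TGF-β, which restrains inflammation and drives scar formation, also showed no overlap. Its signal was 597, 562 and 858 in NOR and 471, 541 and 451 in DEX, with 374 and 298 in CNT. The step was small in set A, where the log2 difference was -0.20, and larger in set B, where it was -0.93. TNF-α, a cytokine of macrophages, had a log2 difference of -0.14 in set A and -1.02 in set B. Its NOR and DEX animals overlapped in set A, where DEX replicate 1 (49.2) lay above NOR replicate 2 (48.4). IL-15, which sustains T and NK cells, had differences of 0.00 and -0.29, and its receptor chain IL15Ra 0.39 and -0.01. Of the 5 cytokine rows, 1 (IL-1β) was past the 25% limit and lower in both sets, against 0.912% of all features, and none was higher. The median log2 difference of the 5 was -0.14 in set A and -0.93 in set B, which is 1 animal per electrode, beside medians of 0.00 and -0.01 over all features. Of all 40 rows raised by insertion, 30 were past the limit and lower in set B, with a median of -0.59. The direction in set B is thus not particular to the cytokines.

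The chemokines, which draw leukocytes into tissue, differed among themselves. CXCL1, a chemoattractant of neutrophils, was the only named gene past the 25% limit and higher with DEX in both sets. Its signal was 259, 271 and 321 in NOR, 284, 656 and 447 in DEX, and 102 and 138 in CNT. DEX replicate 1 lay within the NOR range, so that the electrodes overlapped. This animal lay less than 25% above either NOR animal of set A. Without DEX replicate 2 the 25% limit is therefore not passed there. DEX was 1.63-fold above NOR in set A and 1.39-fold in set B, a log2 difference of 0.63 ± 0.28 (SE, limma adjusted p = 0.945).

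CCL2, which recruits monocytes, went opposite ways in the sets. Its signal was 841 and 1547 in NOR and 2004 and 2136 in DEX replicates 1 and 2, and 1281 in NOR and 832 in DEX replicate 3. DEX thus exceeded NOR in set A but lay below it in set B, and all implanted animals lay above the CNT animals at 246 and 201. The log2 differences were 0.86 and -0.62. CCL5, which draws T cells and monocytes and is represented by 2 features, had differences of 0.25 in set A and -1.30 in set B.

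**Figure D2:**
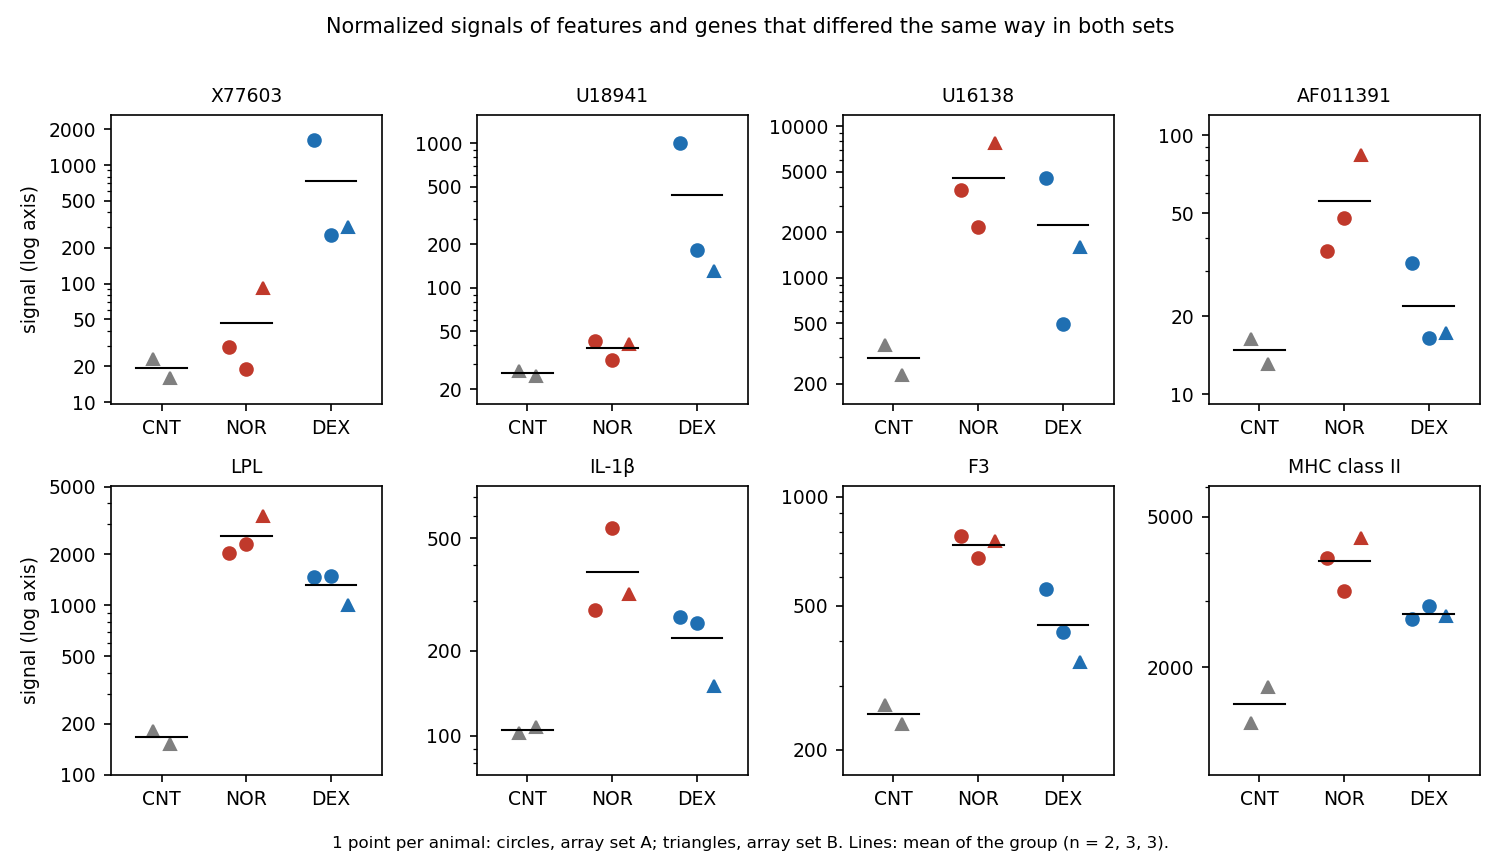
Normalized signal (log axis) of 4 unnamed features and 4 genes in CNT, NOR and DEX, 1 point per animal with circles for array set A and triangles for array set B, and lines at the group means. DEX lies above NOR without overlap for X77603 and U18941 and below it without overlap for AF011391, MHC class II, F3, LPL and IL-1β, while the electrodes overlap for U16138.

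Genes of lipid handling, clotting, matrix and hypoxia included LPL and F3, which were lower in both sets. LPL is lipoprotein lipase, which releases fatty acids from triglycerides and is made by macrophages as well as by fat and muscle. Its signal was 2027, 2288 and 3340 in NOR, 1475, 1492 and 1000.1 in DEX, and 181 and 151 in CNT. The electrodes did not overlap, and all implanted animals were far above CNT. NOR exceeded DEX 1.45-fold in set A and 3.34-fold in set B, a log2 difference of -0.94 ± 0.23 (SE, 95% interval -1.48 to -0.40, limma adjusted p = 0.884).

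F3, tissue factor, starts the extrinsic clotting cascade. Its signal was 776, 678 and 755 in NOR, 554, 424 and 348 in DEX, and 265 and 235 in CNT. NOR replicates lay close together, all DEX animals lay below them, and DEX replicate 3 was the nearest to CNT. NOR exceeded DEX 1.5-fold in set A and 2.17-fold in set B, with a log2 difference of -0.76 ± 0.16 (SE, 95% interval -1.12 to -0.40) and a limma adjusted p of 0.884. F3 had the lowest unadjusted p of the named genes, 0.00144.

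HIF1-α, the oxygen-regulated transcription factor, was also lower in every DEX than in every NOR animal, but within the 25% limit in set A. Its signal was 415, 360 and 607 in NOR, 343, 298 and 283 in DEX, and 205 and 203 in CNT. The log2 differences were -0.27 in set A and -1.10 in set B. TGM, a transglutaminase that crosslinks proteins, had differences of -0.22 and -1.22 and overlapped, since NOR replicate 1 (1242) lay below DEX replicate 1 (1614). FBN1, the microfibril protein fibrillin, had 0.02 and -1.20, and FABP5, a carrier of fatty acids inside cells, had 0.12 and -1.24. For both of these the whole difference over the animals rested on set B.

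MHC class II, which presents antigen to helper T cells, was lower with DEX in both sets. Its signal was 3896, 3190 and 4390 in NOR, 2678, 2899 and 2730 in DEX, and 1430 and 1779 in CNT. The 3 DEX animals lay close together between CNT and NOR. NOR exceeded DEX 1.27-fold in set A and 1.61-fold in set B, a log2 difference of -0.45 ± 0.14 (SE, limma adjusted p = 0.884). The value in set A, -0.34, is close to the limit of 0.32. IL-1β, F3, LPL and CXCL1 lay further inside it, with a smaller difference of 0.60, 0.58, 0.54 and 0.48 in the 2 sets. For IL-1β this rested on NOR replicate 2, and for CXCL1 on DEX replicate 2. Without that animal neither gene passes the limit in set A. MHC class II does not pass it there without NOR replicate 1 or without DEX replicate 1. C4BPA at 0.28 in set B and HIF1-α at 0.27 in set A lay just outside.

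The other rows of antigen presentation and T cells did not share this pattern. CD1-b1, CD1-b4 and CD1-e, which present lipid antigens, had log2 differences of 0.28, 0.30 and 0.34 in set A and of -0.69, -0.50 and -1.01 in set B. CD1-e in set A rested on DEX replicate 1, with 98.0 against 26.0 in DEX replicate 2 and 44.1 and 36.0 in NOR. The CD8 chains, which mark cytotoxic T cells, had differences of -0.08 (CD8-α) and -0.05 (CD-8β) in set A and of -0.43 and -0.48 in set B. At 130 to 161 in set A, CD8-α signals of the electrodes overlapped, and CNT lay at 45.7 and 70.9.

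The Fc gamma receptors, which bind antibody-coated particles on macrophages and neutrophils, were higher with DEX in set A and not in set B. The signal of GPIFCGRB1 was 2139 and 1344 in NOR and 3209 and 4221 in DEX replicates 1 and 2, and 3049 in NOR and 2438 in DEX replicate 3. That of GPIFCGRB3 was 73.4 and 98.9 in NOR and 183 and 262 in DEX replicates 1 and 2, and 160 in NOR and 117 in DEX replicate 3. The animals of the electrodes were apart in set A in both rows, and the order was turned in set B. The log2 differences for GPIFCGRB1, GPIFCGRB2 and GPIFCGRB3 were 1.12, 1.06 and 1.36 in set A and -0.32, -0.11 and -0.45 in set B. The 3 rows are features of 1 receptor precursor and are not independent of each other.

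Complement genes were also examined. C4BPA, the alpha chain of the C4b-binding protein that limits complement activation, was read as the mean of 4 features. Its signal was 98.0, 214 and 293 in NOR, 260, 221 and 357 in DEX, and 17.2 and 13.95 in CNT. DEX was higher in both sets, 1.65-fold in set A and 1.22-fold in set B, but NOR replicate 3 exceeded 2 of the DEX animals. Of the 4 features, AB049465 passed the 25% limit in both sets, AB049466 and AB049467 did so only in set A, and AB049468, at signals of 9.32 to 13.8 in implanted animals, did so in neither. C3AR1, the receptor for the complement fragment C3a, had log2 differences of 0.25 in set A and -0.75 in set B.

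Eicosanoid genes, which make or sense prostaglandins and leukotrienes, were past the 25% limit and lower with DEX in set B in all 5 rows, and in set A 1 of the 5, PTGER4, passed it and was higher. Over all features 14.6% were past the limit and lower in set B and 2.72% higher in set A, and 30 of all 40 rows raised by insertion were past the limit and lower in set B, so that the direction in set B is not particular to this group. LTB4R, the receptor for the chemoattractant leukotriene B4, had signals of 102 and 81.7 in NOR and 63.5 and 93.9 in DEX replicates 1 and 2, and of 215 in NOR and 63.4 in DEX replicate 3. NOR replicate 3 stood above all other animals, and the electrodes overlapped in set A. The log2 differences were -0.24 and -1.76. COX-2, the inducible enzyme of prostaglandin synthesis, had -0.09 and -0.68 at signals of 8.73 to 22.6. TBXAS1, thromboxane synthase, had 0.16 and -0.35, and the prostaglandin E2 receptor PTGER4 had 0.36 and -0.52. PTGER4 in set A rested on DEX replicate 2, with 38.1 against 21.5 in DEX replicate 1 and 21.0 and 23.6 in NOR. AO, an enzyme that inactivates leukotriene B4 and prostaglandins, had -0.04 and -0.42.

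TRPC6, a calcium-permeable cation channel, had the largest difference of a named gene in 1 set. The mean of its 4 features was 101 and 41.1 in NOR and 95.3 and 35.8 in DEX replicates 1 and 2, and 284 in NOR and 33.6 in DEX replicate 3. NOR exceeded DEX 8.46-fold in set B and 1.11-fold in set A, where replicate 1 of both electrodes was high and replicate 2 of both was low. The 4 features had set B log2 differences between -3.36 and -2.77 and set A differences between -0.29 and -0.06, so that the contrast between the sets was alike in each of them. Without replicate 3 of either electrode the log2 difference of TRPC6 was -0.14, against -1.12 over all animals. NCX1, the sodium-calcium exchanger, had -0.14 and 0.17.

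Genes of phagocytes and innate sensing and the enzyme rows are given by their values. None of the 7 passed the 25% limit the same way in both sets, which few features of the array did (0.565% higher and 0.912% lower). CD18, a leukocyte adhesion molecule, had log2 differences of 0.40 and -0.27, and GPR34, a receptor of microglia and macrophages, 0.29 and -0.67. CYBA, a subunit of the phagocyte NADPH oxidase, had -0.07 and -0.56, and TLR3, a sensor of double-stranded RNA, -0.13 and -0.80. 11βHSD type 1, which regenerates active glucocorticoid from its inactive form, had 0.37 and -0.03. Its 2 features differed, AF188005 with 0.49 and 0.04 and AY535424 with 0.14 and -0.14. L-asparaginase had 0.39 and -0.05, and FMO5, a flavin-containing monooxygenase, had -0.08 and -0.36.

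**Figure D3:**
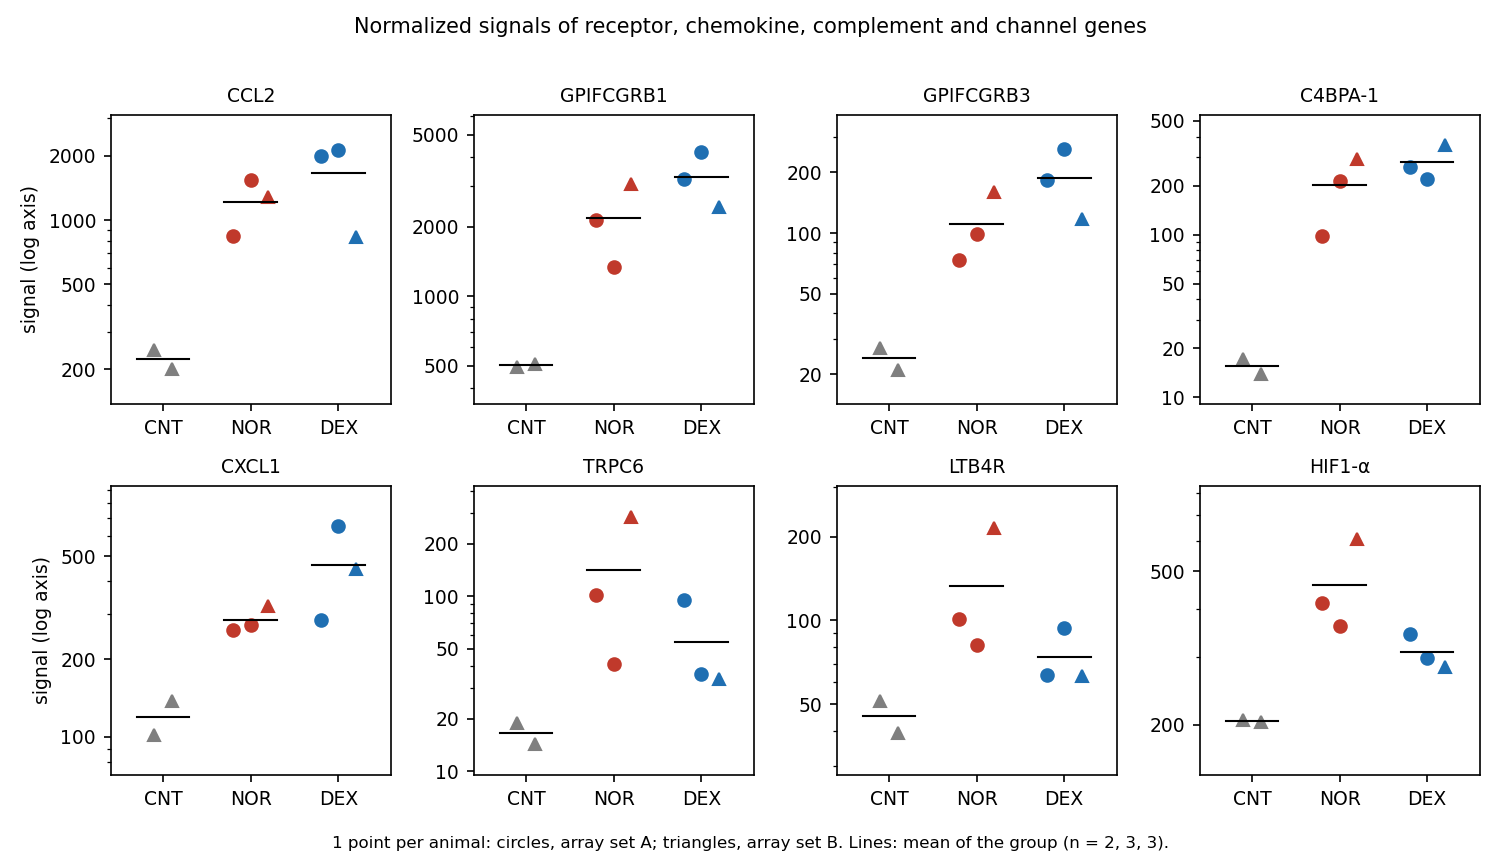
Normalized signal (log axis) of 8 genes in CNT, NOR and DEX, 1 point per animal with circles for array set A and triangles for array set B, and lines at the group means. CCL2 and the Fc receptor rows GPIFCGRB1 and GPIFCGRB3 are higher with DEX among the circles and lower among the triangles, and NOR replicate 3 is the highest animal for TRPC6, LTB4R and HIF1-α.

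The 40 rows that the study listed as raised by the normal electrode were read together. They were selected on the NOR and CNT signals of these same arrays, so that a high NOR signal entered both the selection and the difference between DEX and NOR, and their direction is no independent evidence. In set A, DEX was past the 25% limit and higher in 12 rows and lower in 4, with a median log2 difference of 0.01. In set B, DEX was higher in 1 row and lower in 30, with a median of -0.59. The corresponding shares over all features were 2.72% higher and 2.86% lower in set A and 14.6% in each direction in set B. Over the 772 they were 10.8% higher and 5.44% lower in set A and 15.3% higher and 28.0% lower in set B. Of the 40 rows, 20 were lower with DEX by any amount in set A and 36 in set B, against 6759 and 6754 of all 13269 features. Past the limit in both sets, 4 rows (F3, IL-1β, MHC class II and LPL) were lower and 1 (CXCL1) was higher. Another 5 (CCL2, GPIFCGRB1, GPIFCGRB3, CD1-e and PTGER4) went opposite ways. The shares were 0.912%, 0.565% and 1.48% of all features, and 2.07%, 1.42% and 5.44% of the 772. GPIFCGRB1 went opposite ways only narrowly, with -0.3224 in set B against a limit of 0.3219. Without overlap of the animals, 6 rows were lower (the same 4, HIF1-α and TGF-β) and none was higher, against 2.81% and 2.64% of all features.

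The 9 rows listed as lowered by the normal electrode were likewise divided between the sets. They too were selected on NOR and CNT of these arrays, for a low NOR signal, so that their direction is no independent evidence. None passed the 25% limit in set A, against 2.72% of all features higher and 2.86% lower, and the median log2 difference was 0.06. In set B 8 of the 9 were past the limit and higher with DEX, against 14.6% of all features, and the median was 0.76. For sca1, the ataxin-1 gene, the signal was 57.5, 60.3 and 67.5 in NOR, 68.5, 58.8 and 116 in DEX, and 131 and 176 in CNT. DEX replicate 3 approached the CNT animals, whereas DEX replicates 1 and 2 lay at the NOR level. The log2 differences in set B were 1.06 for GPM4, a muscarinic acetylcholine receptor, 0.85 for sperad-7 and 0.82 for the prolactin-releasing peptide receptor PrRPR, against 0.12, 0.10 and 0.06 in set A. TAC2, listed by the study as a preprotachykinin, a precursor of tachykinin neuropeptides, was 31.5, 29.4 and 11.6 in NOR and 33.6, 19.2 and 19.6 in DEX, with 1367 and 937 in CNT. Its signal stayed low in every implanted animal with either electrode. The remaining rows were the neuroglobin gene ngb with 0.14 and 0.53, the potassium channel gene KCNH2 with -0.15 and 0.30, PRM1 with 0.06 and 0.47, and sperad-4 with 0.03 and 0.46.

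**Figure D4:**
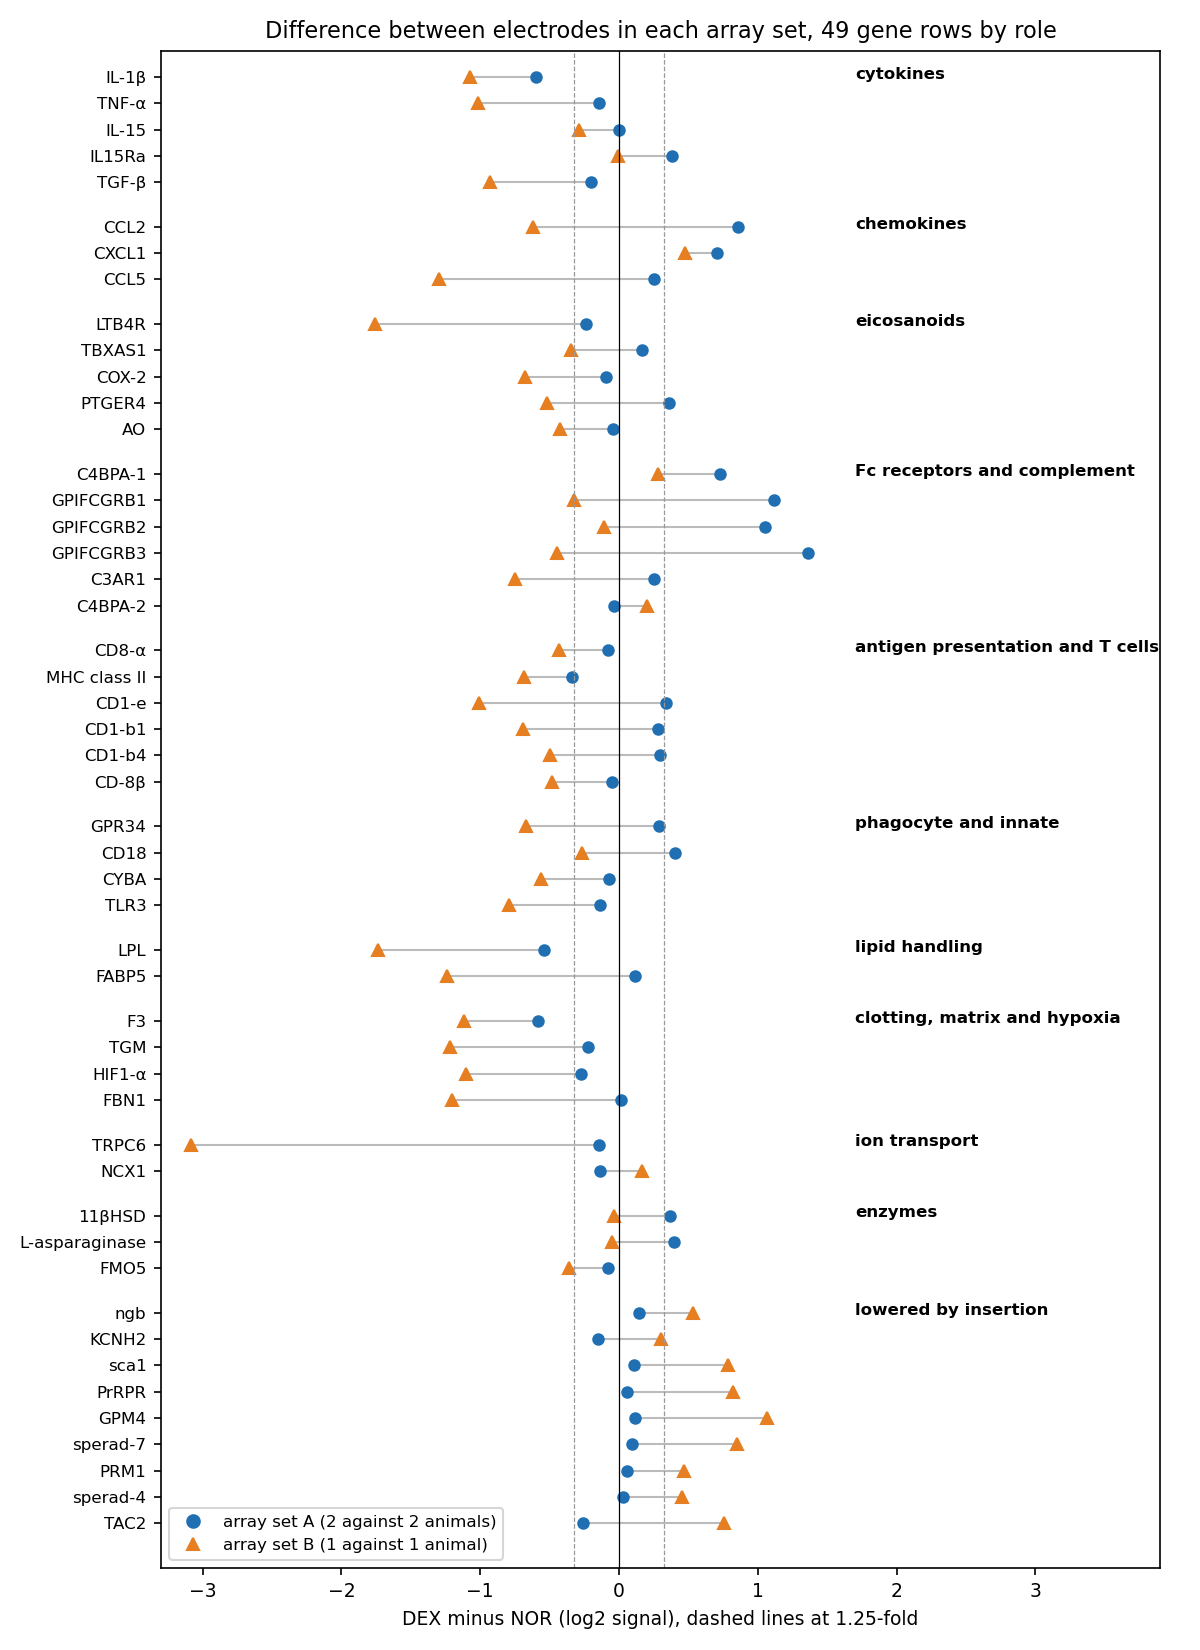
Difference between DEX and NOR (log2 signal) for 49 gene rows grouped by role, with circles for array set A (2 against 2 animals) and triangles for array set B (1 against 1 animal), and dashed lines at the 25% limit. In 36 of the 40 rows raised by insertion the triangle lies below 0, against 20 circles, and in all 9 rows lowered by insertion it lies above 0, while 6754 of all 13269 features were lower in set B and the rows were selected on NOR and CNT of these arrays.

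Whether the difference between the electrodes itself differed between the sets was tested by the interaction of electrode and array set. With limma, 0 features passed an adjusted p of 0.05, and 1543 (11.6%) had an unadjusted p under 0.05, among them 145 of the 772 (18.8%). The lowest values among the features of named genes were unadjusted p = 0.000457 for FABP5, 0.00062 for the LTB4R feature AB005049 and 0.00113 for LPL, each with an adjusted p of 0.176. When the variances were fitted with a trend on signal and robustly, 62 features passed, including features of FABP5, LPL, GPIFCGRB3, FBN1, LTB4R and C3AR1. With signals below 20 set to 20, 170 features passed, and none of them belonged to a named gene. Set B holds 1 animal per electrode, so that a difference between the sets and a difference between these single animals and the others cannot be told apart.

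Features that moved in set A were then read in the animals of set B. Of 266 features past the 25% limit and higher with DEX in set A, with both DEX animals above both NOR animals, 46.2% were higher in set B, against 48.9% of all features. Of 300 features lower in the same way, 63.7% were lower in set B, against 50.9% of all features, and 34.3% were lower past the limit, against 14.6%. For the 772, 26 of 66 higher features (39.4%, against 46.6%) and 28 of 36 lower features (77.8%, against 53.4%) kept their direction. The 63.7% was 57.1% when each set was normalized on its own, and 42.1% without NOR replicate 2.

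The features with the largest lower values among the unnamed part of the 772 were U16138 and AF011391. U16138 had a signal of 3818, 2174 and 7703 in NOR, 4590, 494 and 1587 in DEX, and 360 and 228 in CNT. The DEX animals spanned nearly the whole range from CNT to NOR, and DEX replicate 1 exceeded 2 of the NOR animals. Its log2 difference was -0.94 in set A and -2.28 in set B, and -1.38 ± 0.75 over both (SE, 95% interval -3.13 to 0.36, limma adjusted p = 0.945). Over both sets the difference was -0.59 without DEX replicate 2 and -2.43 without DEX replicate 1. In set A, DEX replicate 1 lay above both NOR animals. Without DEX replicate 2 the feature is therefore higher with DEX in set A, and the sets go opposite ways. AF011391 had 35.6, 47.8 and 84.1 in NOR, 32.1, 16.5 and 17.3 in DEX, and 16.4 and 13.1 in CNT. All DEX animals lay below all NOR animals, and DEX replicates 2 and 3 lay near CNT. NOR exceeded DEX 1.79-fold in set A and 4.87-fold in set B, a log2 difference of -1.32 ± 0.35 (SE, limma adjusted p = 0.884).

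In all, 9 of the 11 higher and 12 of the 16 lower features among the 772 had no gene name. In 6 of the 11 and 11 of the 16 the electrodes did not overlap, against 3.11% and 3.89% of the 772, but a difference in both sets, for which they were chosen, makes such a separation more frequent. None of the 772 was 2-fold lower in both sets, against 9 features (0.0678%) of the whole array.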

How the data were processed

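Total RNA of 8 cochleae was reverse transcribed, and Cy3-labelled cDNA was hybridized to 1-color NimbleGen arrays. For every feature of each array the authors deposited a linear signal intensity, extracted with Agilent Feature Extraction 10.7.3.1. The submitters' processing notes name RMA, with its settings not given in the sources used here, and probes of a gene were combined. Log2 signals were quantile-normalized because array quartiles and medians differed by up to 0.39, over a set limit of 0.05. Array sets joined arrays sharing at least 150 equal signal values. A limma model with group and array set was fitted to all 8 arrays (4 residual and 3.57 prior degrees of freedom), with Benjamini-Hochberg adjustment over 13269 features, and a second model with each combination of group and set gave the interaction. Means and SDs are over animals. Rows of several features are given without SE.

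Genes were named from the study's 2 gene lists, by matching printed group averages to the deposited signals. Of 49 rows, 42 matched 1 feature, 5 a mean of 2 and 2 a mean of 4. The accessions matched no entry of the gene table used here. Named were all matched rows, and the 2 highest and 2 lowest unnamed features of the 772 by the smaller difference of the sets. Members and lists were chosen with earlier results of these data known. The replicate numbers were checked as pairs: residuals of NOR and DEX with the same number had r of 0.22, 0.36 and 0.53 across features, against 0.20 and 0.33 for different numbers within set A and -0.44 to -0.27 across sets. The array set and not the pair was the term of the model. A replicate block, which treats the numbers as pairing the animals, was fitted as an alternative. Other alternatives were 4 scalings, filters on low signals, a floor of 20, other variance models, a 1.5-fold limit, the methods' t-test and leaving out each animal. The procedure was tested on simulated data. Fits used limma 3.58.1 in R 4.3.3, and summaries used pandas 2.3.3 and numpy 2.4.6 in Python 3.11.15.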

Additional observations from a re-analysis of the deposited data

How the results depend on the processing

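No feature passed an adjusted p of 0.05 between DEX and NOR by limma under any alternative, or by the methods' t-test with Benjamini-Hochberg adjustment. At an unadjusted p under 0.05 the count was 696, and it was 393 without the 25% of features with the lowest signal, 329 without the array set term, 284 by the methods' t-test on log2 signals and 453 to 1011 when an animal was left out. With the replicate block 512 features had an unadjusted p under 0.05, and no call between DEX and NOR was made or lost. The interaction gave 170 features with a floor of 20, 62 with trend and robust variances and 0 to 3 when an animal was left out. Over all features, those higher and lower in both sets numbered 37 and 59 without the 25% lowest, 46 and 67 with the floor, 20 and 22 at 1.5-fold, 100 and 84 with median centring, which turned the order, and 75 to 201 and 121 to 237 when an animal was left out. Among the 772, 10 were lower without the 25% lowest, 4 were higher and 4 lower at 1.5-fold, 15 and 13 with median centring, 13 and 13 with each set normalized alone, 14 and 14 with cyclic loess, and 11 to 21 were higher and 16 to 31 lower when an animal was left out. Of features lower in set A, 56.1% were lower in set B with signals as deposited, 57.1% with each set normalized alone, 56.5% with median centring, 57.0% with cyclic loess, 54.5% without the 25% lowest, 54.0% with the floor, 74.4% at 1.5-fold in set A and 42.1% to 67.7% when an animal was left out. Of features higher in set A, 38.4% were higher in set B at 1.5-fold and 40.5% to 56.0% when an animal was left out. The cause was not tested. Without NOR or DEX replicate 3 set B has no value. No adjusted p of a named gene or feature that differed the same way in both sets was below 0.244 (IL-1β), with a range of 0.415 to 1.00 for X77603 and 0.599 to 1.00 for LPL. The log2 difference stayed at -1.10 to -0.54 for LPL, -1.08 to -0.53 for IL-1β, -0.92 to -0.58 for F3, -0.57 to -0.34 for MHC class II and 0.26 to 0.95 for CXCL1 when an animal was left out. These ranges are not for set A alone. There, IL-1β without NOR replicate 2 and CXCL1 without DEX replicate 2 do not pass the 25% limit. Nor does MHC class II without NOR replicate 1 or without DEX replicate 1.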

Other observations

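Outside the 772, 9 features with accessions beginning with EL were at least 2-fold lower with DEX than with NOR in both sets (0.0678% of all features), and in all 9 every DEX animal lay below every NOR animal. They carry no gene name in the sources used here, and they were looked at after their values were seen. In 8 of them the signals were 195 to 397 in NOR and 65.4 to 225 in DEX, while CNT replicate 1 had 68.4 to 144 and CNT replicate 2 had 19.9 to 36.8. The DEX animals thus lay between NOR and CNT replicate 2, and the CNT animals differed from each other.

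Single arrays stood apart at 2 other features, chosen after the values were seen as those beginning with EL or EB with the widest range over the implanted animals. EL942368 had 2330, 3068 and 9.30 in NOR and 3792, 12.1 and 2582 in DEX, with 3317 and 2701 in CNT. EL938446 had 37.6 in DEX replicate 2 and between 3865 and 6163 in the other 7 animals.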
